A study of Mus musculus with 9 samples.

Results

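Processed pseudogenes with a high measured level were examined in mouse ovaries around the days when follicular antra first form (iFFA in the study). They were taken as the rows annotated as processed_pseudogene whose mean FPKM (mapped fragments scaled by exon length and library depth) over 9 libraries was above 5. This rule was met by 350 of the 7734 processed pseudogene rows (4.53%), among 52025 rows in all. The mean level itself chose these genes, so that they are abundant is no finding, whereas the rule used no difference between days.

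The ovaries came from Kunming mice, an outbred stock, on postnatal day (PD) 14, 15 and 16, with 3 libraries for each day and no other treatment or genotype. The days span the time at which the first small antra form, and the comparison asks what changes as they do. The source in the labels reads granulosa cells and the tissue ovary, whereas the study's methods describe whole ovaries, 3 biologically independent ones a day. In bulk tissue, a change in the share of a cell type and a change in RNA per cell cannot be told apart. All 6 granulosa cell markers (summed FPKM 2517 to 3279) and all 8 oocyte markers were above 1 FPKM in every library. Depth was 20.4 to 28.7 M mapped fragments a library. Some marker lists moved with the days. The oocyte markers summed to 969 to 1201 FPKM on PD14, 1224 to 1289 on PD15 and 913 to 966 on PD16, with no overlap. The 5 oviduct and surface epithelium markers stepped down from 49.99 to 50.9 through 41.4 to 45.3 to 34.9 to 38.5. The 5 blood cell markers summed to 105 to 147, 46.4 to 63.2 and 60.8 to 116. The 5 theca and interstitial cell markers summed to 120.2 to 133, 89.6 to 104 and 93.4 to 139, and the 3 fat markers to 6.42 to 7.82, 4.43 to 5.01 and 4.05 to 5.77. The part of these lists in the results below was not tested.

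A processed pseudogene, or retrocopy, arises when the mRNA of a parent gene is reverse transcribed and inserted elsewhere in the genome. The copy therefore lacks the introns of its parent, usually lacks its promoter, and resembles the mature mRNA. Genes with abundant mRNA in the germ line, those of ribosomal proteins above all, have left many such copies. A short fragment of the parent's mRNA can align to a young copy as well as to the parent, and a fragment that spans an exon junction matches the copy without a gap. The FPKM of a copy and of its parent are therefore uncertain relative to each other, and how the deposited values treated fragments with several equally good places is not given in the sources used here. Every level below is a level as listed, not a measure of transcription at that locus.

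The alignments show how little separates a copy from its parent. Stretches of 120 bases of the parent's coding sequence are given with the matching bases of the copy, from GENCODE M21 transcripts on GRCm38 (the mm10 build), 5′ to 3′, with capitals at positions where a copy differs from the parent. They were picked for the copies on which the results turn. Each is the ungapped stretch of the parent's coding sequence with the most differing bases, so it is not a typical one. For copies shown together, the differences of the copy with fewer decided first. Gm11585 (ENSMUSG00000082045), which is nearly absent on a single day, is identical to Ppih, a spliceosomal cyclophilin, over its whole length. Its stretch lies at chr11:102124074-102124193 on the plus strand.
Ppih: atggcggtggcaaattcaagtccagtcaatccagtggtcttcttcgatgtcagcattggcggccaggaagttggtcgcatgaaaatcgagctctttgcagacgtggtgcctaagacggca
Gm11585: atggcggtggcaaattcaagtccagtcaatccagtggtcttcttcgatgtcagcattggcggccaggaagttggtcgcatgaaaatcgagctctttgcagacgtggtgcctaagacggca

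Rps3a2 and Rps3a3 are copies of Rps3a1, a protein of the small ribosomal subunit, and are 98.99% identical to each other. The stretches lie at chr14:88123164-88123283 on the minus strand and at chr13:108671128-108671247 on the plus strand.
Rps3a1: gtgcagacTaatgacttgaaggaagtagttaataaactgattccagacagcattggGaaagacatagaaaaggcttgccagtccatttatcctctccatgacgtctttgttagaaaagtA
Rps3a2: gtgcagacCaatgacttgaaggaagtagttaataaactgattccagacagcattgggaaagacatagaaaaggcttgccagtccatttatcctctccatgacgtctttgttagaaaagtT
Rps3a3: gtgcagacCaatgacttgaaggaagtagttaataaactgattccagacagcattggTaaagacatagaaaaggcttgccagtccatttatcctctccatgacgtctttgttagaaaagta

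Gm12191 and Rpl30-ps10 are copies of Rpl30, a protein of the large subunit, and are 99.4% identical. The stretches lie at chr11:49678938-49679057 on the minus strand and at chrX:71803688-71803807 on the plus strand.
Rpl30: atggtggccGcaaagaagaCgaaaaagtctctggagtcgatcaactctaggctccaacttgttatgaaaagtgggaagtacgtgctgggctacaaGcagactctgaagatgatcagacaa
Gm12191: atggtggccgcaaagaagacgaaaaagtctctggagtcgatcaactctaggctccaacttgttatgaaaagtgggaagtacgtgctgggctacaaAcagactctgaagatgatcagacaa
Rpl30-ps10: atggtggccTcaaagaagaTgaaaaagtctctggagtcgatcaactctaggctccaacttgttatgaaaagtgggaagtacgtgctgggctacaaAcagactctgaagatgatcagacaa

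Rpl3-ps1, which rose on PD16, differs from Rpl3 at 1 base of this stretch at chrX:13202572-13202691 on the plus strand.
Rpl3: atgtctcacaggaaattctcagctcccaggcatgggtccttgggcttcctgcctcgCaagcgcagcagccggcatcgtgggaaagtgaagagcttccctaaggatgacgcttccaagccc
Rpl3-ps1: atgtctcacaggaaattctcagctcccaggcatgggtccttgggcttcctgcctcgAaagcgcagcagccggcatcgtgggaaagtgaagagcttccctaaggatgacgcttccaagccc

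Rpl34-ps1, the most abundant member, differs from Rpl34 at 1 base of the stretch at chr6:71124622-71124741 on the plus strand.
Rpl34: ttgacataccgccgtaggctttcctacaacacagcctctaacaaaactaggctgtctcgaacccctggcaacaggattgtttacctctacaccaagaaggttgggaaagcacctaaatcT
Rpl34-ps1: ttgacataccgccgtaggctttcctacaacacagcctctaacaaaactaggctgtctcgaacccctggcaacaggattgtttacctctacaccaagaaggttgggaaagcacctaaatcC

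Rps25-ps1 and Gm2225, both copies of Rps25 and both called between the same days, are 98.1% identical. The stretches lie at chr6:145266401-145266520 on the plus strand and at chr8:78486291-78486410 on the minus strand.
Rps25: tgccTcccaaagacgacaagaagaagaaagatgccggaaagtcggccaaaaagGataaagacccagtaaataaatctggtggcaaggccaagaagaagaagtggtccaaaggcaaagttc
Rps25-ps1: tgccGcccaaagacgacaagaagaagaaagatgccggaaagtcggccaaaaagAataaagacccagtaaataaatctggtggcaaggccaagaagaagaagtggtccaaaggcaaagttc
Gm2225: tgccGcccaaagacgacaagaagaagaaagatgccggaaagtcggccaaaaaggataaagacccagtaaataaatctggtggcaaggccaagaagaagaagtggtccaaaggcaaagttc

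Gm13394, a copy of the glycolytic enzyme gene Gapdh, is listed far above its parent. The stretch lies at chr2:28934264-28934383 on the minus strand.
Gapdh: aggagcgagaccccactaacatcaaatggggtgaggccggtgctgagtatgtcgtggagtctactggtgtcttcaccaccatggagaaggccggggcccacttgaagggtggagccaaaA
Gm13394: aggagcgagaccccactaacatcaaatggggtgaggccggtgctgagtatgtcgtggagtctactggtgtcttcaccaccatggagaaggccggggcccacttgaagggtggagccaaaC

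Each of these parent stretches crosses 1 exon junction, apart from that of Rps25, which crosses 2. All the copies shown are single exons.

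Near identity was general. Parents were found for 348 members, 73 from the member's own symbol and 275 by the best match of its sequence to protein-coding transcripts. Over the aligned part, members were a median of 99.2% identical to the parent, with the lowest at 81.9%, and 345 were aligned over at least 90% of their length. Identity was at least 99% for 202 members (58.0%), and 49 were identical over their whole length. Of 6904 other processed pseudogenes with a match, 268 (3.88%) reached 99%. Identity followed the listed level. The median was 86.4% for the 3878 pseudogenes at 0 in every library, 91.6% for the 2670 with a mean up to 1 FPKM and 98.1% for the 356 with a mean of 1 to 5. These are descriptions of the sequences, and no test was made. Of the 348 placed members, 231 (66.4%) were intergenic, 61 lay in an intron on the opposite strand to the host gene, 44 in an intron on the same strand, and 8 and 4 overlapped an exon of another gene on the opposite and on the same strand. The intergenic share among the other processed pseudogenes was 69.9%. Members lay on 20 chromosomes, with 40 on chromosome 2, 28 on chromosome X and 28 on chromosome 6. Their median length was 494 bases, from 69 to 2704.

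The parents were 252 in number, and 138 of them fell outside the named classes below. Cytosolic ribosomal proteins were the largest named class with 113 members from 59 parents, and these took 60.6 to 66.1% of the summed member FPKM. Next were 26 copies of chromatin and nuclear protein genes, 14 of ubiquitin and proteasome genes, 12 of mitochondrial respiration genes, 10 of RNA-binding protein genes and 7 of translation factor genes. Cytoskeletal genes had 5 copies, the chaperonin gene Hspd1 and the cyclophilin gene Ppia 3 together, and glycolysis enzymes 2. These classes follow lists of symbols and do not hold every gene of a kind, so that the Ppih copy Gm11585 falls outside them. No member had ferritin as its parent, and 156 members had parents outside these lists. Several members shared a parent in 64 families. The largest were those of Hmgb1, which encodes a DNA-bending nuclear protein, and of Rpl21, with 7 members each. The Hmgb1 copies ran from 5.33 FPKM (Hmgb1-ps1) to 176 (Gm5518), with Hmgb1 itself at 25.7. Of the Rpl21 copies, Rpl21-ps15 stood at 241 FPKM and the other 6 at 5.29 to 20.998, with Rpl21 at 18.5.

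**Figure D1:**
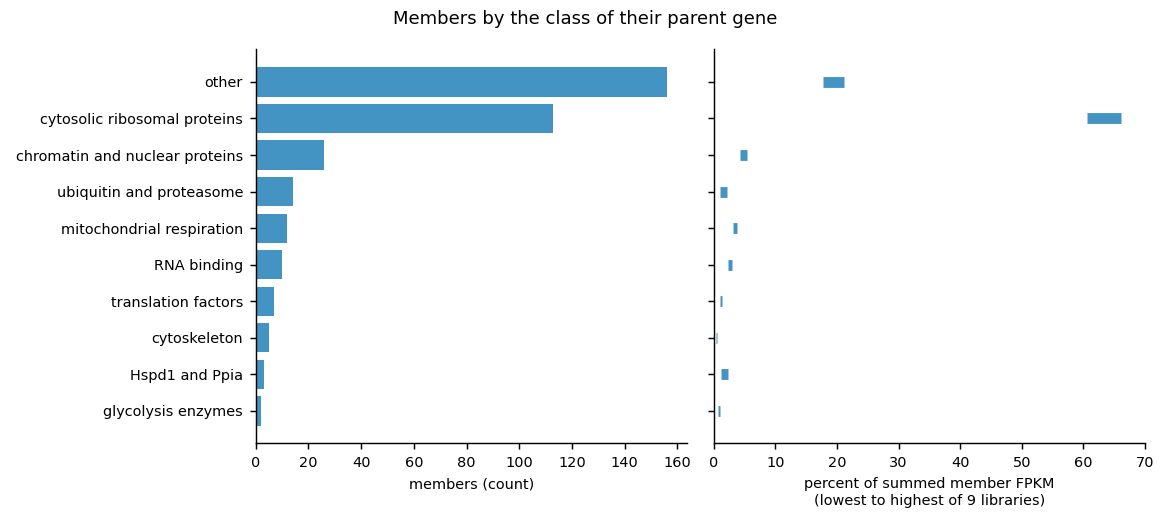
Members by the class of the parent gene. The left bars count members, and the right bars span the lowest to the highest share of the summed member FPKM over 9 libraries (percent). Ribosomal protein copies make up 113 of 350 members and 60.6 to 66.1% of the summed level.

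Members had means of 5.02 to 1603 FPKM, with 54 above 100 and 108 between 5 and 10. Together they held 6.45 to 7.89% of all FPKM in a library, and the 10 highest took 31.6 to 36.7% of that. Rpl34-ps1 led with 1207, 1441 and 1732 FPKM on PD14, 1449, 1454 and 1995 on PD15, and 1934, 1707 and 1503 on PD16. Its days overlapped. Gm15772, a copy of Rpl26, had 1209, 983 and 1293 FPKM on PD14, 1091, 919 and 1827 on PD15, and 2220.2, 1603 and 1020.2 on PD16. Both parents encode proteins of the large subunit. The other 8 were Gm8730 (a copy of Rplp0, 911 FPKM on average), Rpl17-ps10 (763), Gm9794 (Rpl23, 664), Tpt1-ps3 (643), Rps10-ps2 (487), Gm14303 (Rps29, 478), Rpsa-ps10 (394) and Gm12191 (388). All but Tpt1-ps3, a copy of the gene of translationally controlled tumor protein, derive from ribosomal protein genes. By limma none of the 10 was called between days, against 5.03% of all genes tested. From PD14 to PD15, PD14 to PD16 and PD15 to PD16, 0, 0 and 3 of them had an unadjusted limma p under 0.05. Of all genes tested, 14.7%, 22.8% and 14.1% did. Just inside the threshold of the rule stood Gm11954 (5.06), Gm7236 (5.02) and Gm6877 (5.02), and just outside Gm10145 (4.97), Itpa-ps1 (4.96) and Rpl17-ps9 (4.91).

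In 96 of 348 cases (27.6%) the member was listed above its parent, and the median member stood at 0.371 of the parent's FPKM. FPKM is per length, but these counts compare levels as listed and rest on how shared fragments were assigned to the 2 rows of a pair. In 13 pairs with a parent above 0, the copy was listed at least 10 times above the parent. Pairs with a parent at 0 have no ratio and are in neither this count nor the median. These are Gm7730 and RP23-48A24.3 (both Gm20390), Gm11478 (Gm45713) and Gm43555 (Dgcr8). Rpl34 was listed at 39.9 FPKM in 1 PD14 library and at 4.50 to 5.61 in the other 8, against 1207 to 1995 for Rpl34-ps1. Gapdh, among the most abundant glycolytic mRNAs of most tissues, was listed at only 1.86 to 11.3 FPKM, while Gm13394 had 185, 184 and 146 FPKM on PD14, 197, 188 and 208 on PD15, and 224, 238 and 178 on PD16. Atp6v0c, which encodes a subunit of the vacuolar proton pump, had 1.40 to 2.35 FPKM, and its copy Gm15487 had 117 to 133. Rpl29 had 1.54 to 2.35 FPKM, and its copy Gm13841 had 166 to 258. Of the 252 parents, 6 had a mean under 1 FPKM and 19 under 5. At the other end, 72 members were at or under 0.1 of the parent.

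**Figure D2:**
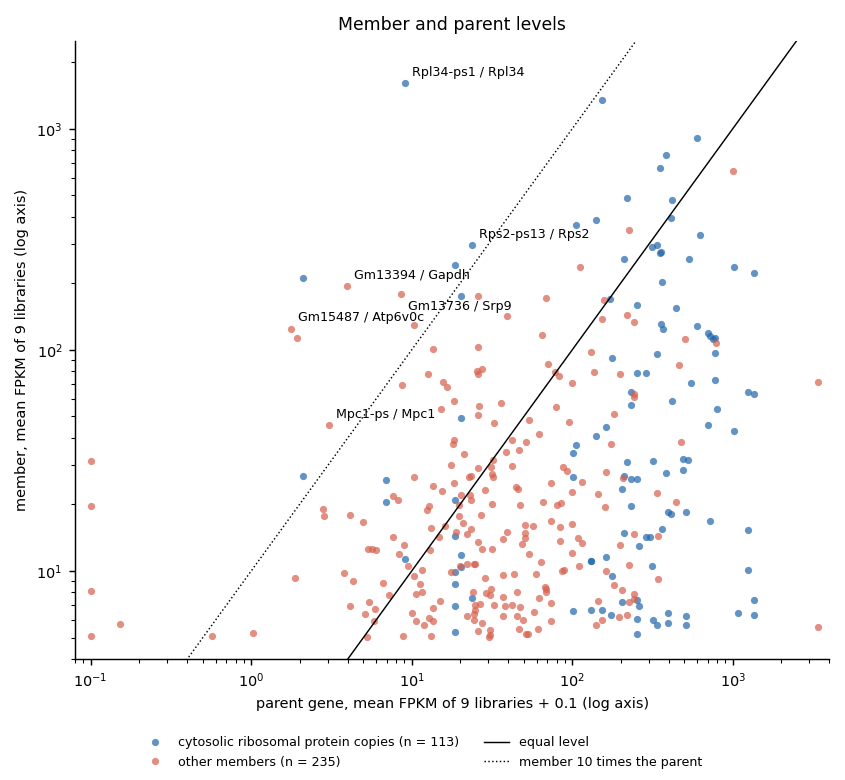
Mean FPKM over 9 libraries of each member (vertical) against that of its parent gene plus 0.1 (horizontal), both on log axes, for 348 members with a parent. Points above the solid line, 96 in number, are copies listed above the parent. Of those with a parent above 0, 13 are at or above 10 times the parent's FPKM (the dotted line marks 10 times). Pairs with a parent at 0 stand at 0.1 on the horizontal axis and are not among the 13.

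Few members differed between days. Tests used limma on log2(FPKM + 1) over 15495 genes, with Benjamini-Hochberg adjustment over all of them, and a gene was called at an adjusted p under 0.05. From PD14 to PD15, 4 of 350 members were called (1.14%, against 0.678% of all genes tested), of which 3 rose (0.857%, against 0.336%) and 1 fell (0.286%, against 0.342%). From PD14 to PD16, 12 were called (3.43%, against 4.25%), of which 6 rose (1.71%, against 2.36%) and 6 fell (1.71%, against 1.89%). From PD15 to PD16, 8 were called (2.29%, against 0.729%), of which 4 rose (1.14%, against 0.432%) and 4 fell (1.14%, against 0.297%). The F test over the 3 days called 16 members (4.57%, against 3.03%), and 19 members were called in all by a contrast or the F test (5.43%, against 5.03%). These counts moved with single libraries. With 1 library left out, PD15 against PD14 gave 0 (without PD15 library 1) to 7 calls (without PD14 library 1), PD16 against PD14 gave 4 (without PD16 library 1) to 12, and PD16 against PD15 gave 1 (without PD15 library 1) to 12 (without PD14 library 1). Without the filter on low values they were 1, 4 and 1, and with the replicate number as a block 3, 7 and 6. At an unadjusted p under 0.05 the shares were 14.0%, 15.7% and 19.4% of members, against 14.7%, 22.8% and 14.1% of all genes. The libraries of the 2 days did not overlap for 53, 53 and 67 members (15.1%, 15.1% and 19.1%), against 20.6%, 28.5% and 19.6% of all genes. The median log2 change of members was 0.08, 0.07 and 0.00 in the 3 contrasts, against 0.01 in each over all genes. The contrasts share libraries, so these are not separate counts. Where nothing else is said, a call refers to this test, and its p-values measure the spread between these 3 ovaries a day.

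Among the 113 ribosomal protein copies, 7 were called by a contrast or the F test (6.19%, against 5.03% of all genes tested). Rpl3-ps1 (ENSMUSG00000084349, chrX:13202571-13203780, plus strand, intergenic) had 118, 114 and 132 FPKM on PD14, 119, 115 and 137 on PD15, and 198, 257 and 206 on PD16. The 3 PD16 libraries were above all others. The log2 change was 0.85 (SE 0.11) from PD14 to PD16, with a limma adjusted p of 0.0106 that stayed between 0.0153 and 0.0386 whichever library was left out. It was 0.82 from PD15 to PD16 (adjusted p = 0.0236), and that call was lost without PD15 library 1 (0.0956) or 2 (0.0825). The same call was lost without the filter on low values (0.0811) and with the replicate number as a block (0.051). Rpl3, whose protein reaches toward the peptidyl transferase center of the ribosome, had 426 to 491 FPKM on PD14, 421 to 519 on PD15 and 381 to 479 on PD16, and was not called.

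Gm13680, a copy of the X-linked small-subunit gene Rps4x on chromosome 2, had 35.2, 18.6 and 32.9 FPKM on PD14, 73.8, 72.1 and 77.7 on PD15, and 59.5, 58.3 and 58.8 on PD16. The 3 days did not overlap, and PD15 was highest. The log2 change was 1.39 (SE 0.19) from PD14 to PD15 and 1.05 (SE 0.19) from PD14 to PD16, with limma adjusted p of 0.0258 and 0.0237. The first call was lost without PD14 library 3 (0.0723) or PD15 library 1 (0.10), 2 (0.0746) or 3 (0.0579), the second without PD14 library 3 (0.0529) or PD16 library 1 (0.0767), 2 (0.0588) or 3 (0.0509). Without the filter on low values both were lost (0.0815 and 0.0721).

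Gm12411, a copy of Rpl21 on chromosome 4, fell. It had 14.3, 17.1 and 12.7 FPKM on PD14, 10.4, 9.40 and 10.7 on PD15, and 5.65, 5.29 and 3.26 on PD16. Its days did not overlap and stepped down in order. The log2 change from PD14 to PD16 was -1.47 (SE 0.16, limma adjusted p = 0.00583, and 0.0117 to 0.0238 with any 1 library left out). From PD15 to PD16 it was -0.99 (adjusted p = 0.0408), kept in 3 of 9 fits that left out 1 library. Rpl21 itself had 10.5, 13.2 and 10.5 FPKM on PD14, 22.8, 27.4 and 35.8 on PD15, and 22.1, 14.8 and 9.37 on PD16, a different pattern from that of its copy.

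Rps25-ps1 and Gm2225 share the parent Rps25 and were called together between PD15 and PD16. Rps25-ps1 had 16.7, 18.8 and 26.5 FPKM on PD14, 13.4, 10.6 and 13.1 on PD15, and 27.3, 21.6 and 29.3 on PD16. Gm2225 had 50.01, 43.4 and 75.3 FPKM on PD14, 34.7, 33.2 and 41.5 on PD15, and 86.1, 70.7 and 69.97 on PD16. Both were lowest on PD15, with no overlap with PD16. The log2 changes were 1.02 (SE 0.17) and 1.03 (SE 0.18), with limma adjusted p of 0.0408 and 0.0462, kept in 4 and 2 of 9 fits that left out 1 library. Since they share a sequence, they are not 2 independent observations. Rps25 had 194 to 231 FPKM on PD14, 222 to 294 on PD15 and 205 to 273 on PD16.

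Rpl36a-ps1 and Rps2-ps13 completed the ribosomal copies. Rpl36a-ps1 had 5.97, 7.74 and 6.88 FPKM on PD14, 9.18, 8.51 and 10.7 on PD15, and 5.62, 5.49 and 6.49 on PD16, a log2 change of -0.61 from PD15 to PD16 (limma adjusted p = 0.0444, kept in 2 of 9 fits that left out 1 library). Rps2-ps13 had 291, 529 and 581 FPKM on PD14, 191, 178 and 290.2 on PD15, and 192, 240.4 and 181 on PD16. All PD16 libraries were under all PD14 libraries, and the log2 change was -1.14 (SE 0.27, limma adjusted p = 0.0494, kept in 2 of 9). Its parent Rps2 was listed at 5.38 to 11.2 FPKM in 8 libraries and at 146 in PD16 library 1. Of the 86 coding genes of cytosolic ribosomal proteins, 85 were tested. From PD14 to PD15, PD14 to PD16 and PD15 to PD16, 6, 7 and 6 of them had an unadjusted limma p under 0.05 (7.06%, 8.24% and 7.06%, against 14.7%, 22.8% and 14.1% of all genes tested), and their median log2 changes were 0.07, 0.07 and 0.02.

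**Figure D3:**
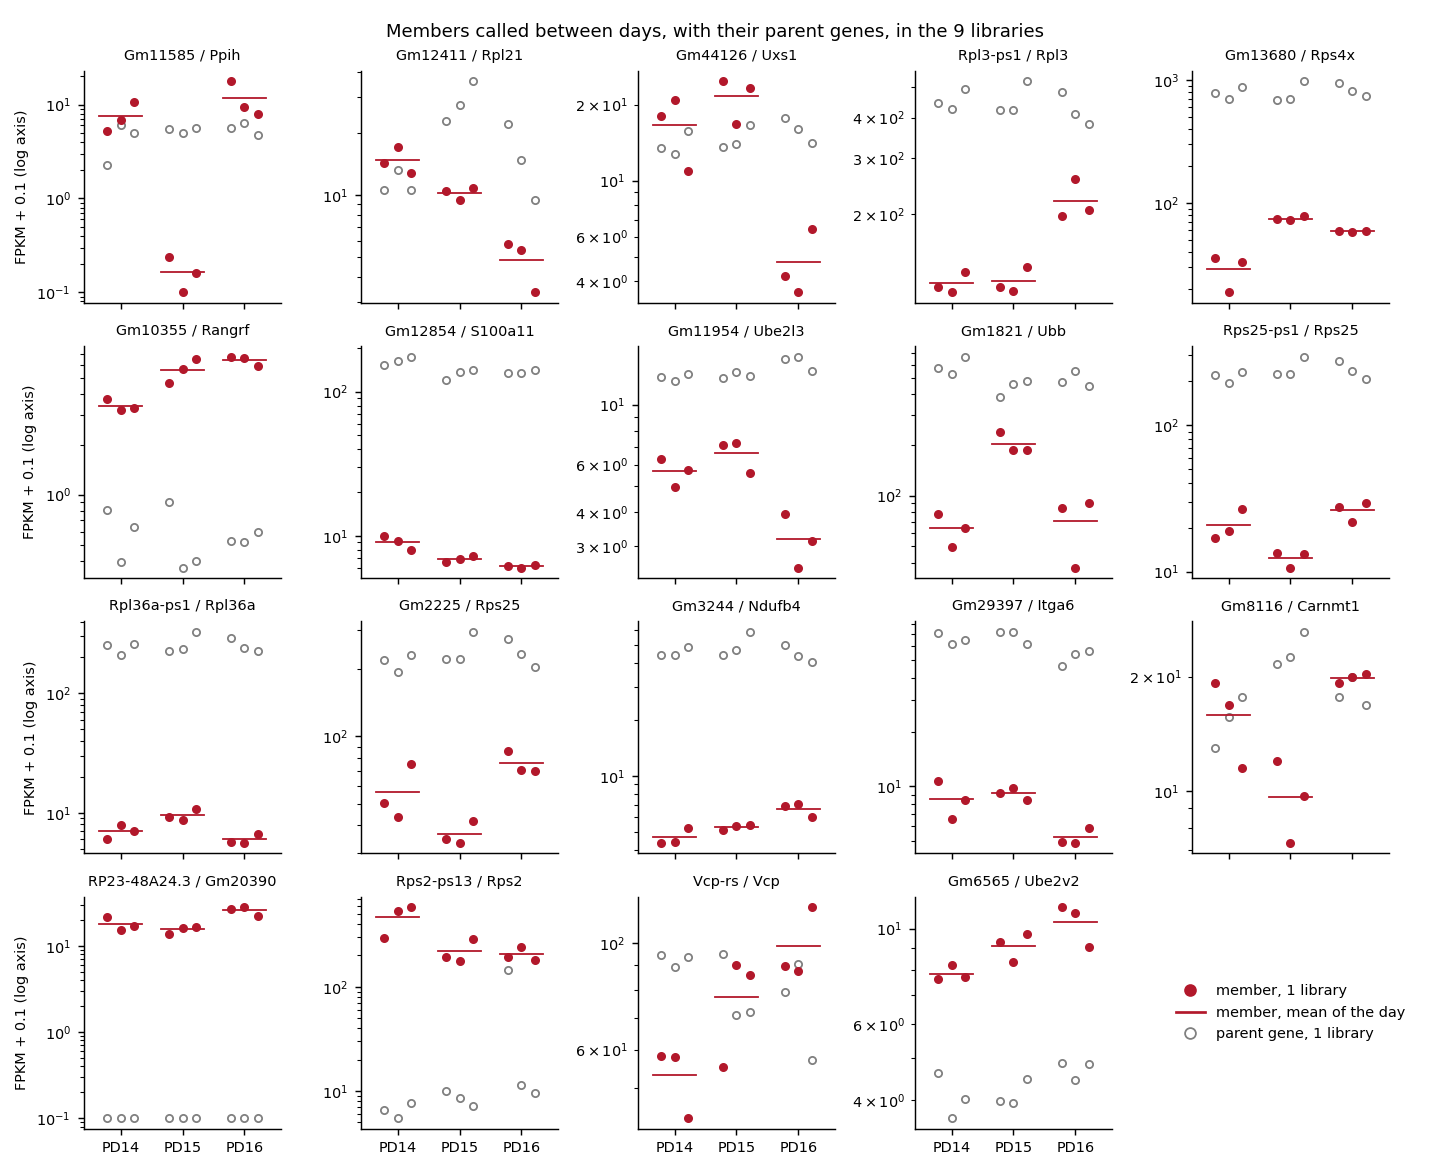
FPKM plus 0.1 (log axes) of the 19 called members (filled, lines mark day means) and of their parents (open) in the 3 libraries of PD14, PD15 and PD16. Gm11585 is near 0 in all PD15 libraries while Ppih stays at 4.95 to 5.57 FPKM there. By limma none of the 16 parents that could be tested was called from PD14 to PD15, PD14 to PD16 or PD15 to PD16. Of all genes tested, 0.678%, 4.25% and 0.729% were. In each contrast 4 of the 16 had an unadjusted limma p under 0.05, against 14.7%, 22.8% and 14.1% of all genes.

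The other 12 called members came from single parents of varied function. Gm11585 was the only member near 0 in every library of a day and high in every library of another. It had 5.16, 6.84 and 10.6 FPKM on PD14, 0.14, 0 and 0.061 on PD15, and 17.7, 9.37 and 7.81 on PD16. In fragments, PD15 held 3 over its 3 libraries, against 289 on PD14 and 474 on PD16. Per mapped fragment PD14 was 109 times PD15 (95% interval 36.9 to 531, counting error only) and PD16 was 171 times PD15 (58.2 to 833). The limma adjusted p was 0.00634 for PD15 against PD14 and 0.00149 for PD16 against PD15, and only without PD15 library 1 was the first of these calls lost (0.0564). Of 9029 other genes with a mean above 5 FPKM, none had all libraries of a day under 1 and all of another above 5. Ppih, identical in sequence, had 2.15, 6.01 and 4.87 FPKM on PD14, 5.35, 4.95 and 5.57 on PD15, and 5.52, 6.26 and 4.67 on PD16. Its PD15 values lay within the range of the other days. With both rows summed, the log2 change was -0.21 from PD14 to PD15 and 0.64 from PD15 to PD16 (limma adjusted p = 0.728 and 0.249). Ppih held 73.2% of the summed fragments. Whether fragments moved between the rows was not tested.

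Gm44126 is identical over 99.6% of its length to Uxs1, whose enzyme makes UDP-xylose for proteoglycan synthesis. It had 17.9, 20.9 and 10.8 FPKM on PD14, 24.7, 16.7 and 23.2 on PD15, and 4.08, 3.51 and 6.35 on PD16. All PD16 libraries were under all others, and the log2 change was -1.62 (SE 0.25) from PD14 and -2.01 (SE 0.25) from PD15, with limma adjusted p of 0.0151 and 0.0182. The first call was lost without PD14 library 1 (0.0504) or PD16 library 1 (0.0607), the second without PD15 library 1 (0.0817) or PD16 library 1 (0.0608). Without the filter on low values both were lost (0.0523 and 0.0686). Uxs1 stayed at 12.6 to 17.7 FPKM throughout.

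Gm1821, a copy of the polyubiquitin gene Ubb, peaked on PD15. It had 77.5, 49.5 and 63.9 FPKM on PD14, 238, 185 and 186 on PD15, and 84.3, 37.2 and 90.2 on PD16. The PD15 libraries stood above the rest, with a log2 change of 1.67 (SE 0.30, limma adjusted p = 0.0499, kept in 2 of 9 fits that left out 1 library) from PD14. From PD15 to PD16 the change was -1.60 and missed the threshold (0.0552). Ubb had 576, 526 and 671 FPKM on PD14, 386, 457 and 477 on PD15, and 476, 549 and 445 on PD16. Gm11954, from the ubiquitin-conjugating enzyme gene Ube2l3, had 4.86 to 6.20 FPKM on PD14, 5.49 to 7.10 on PD15 and 2.40 to 3.85 on PD16. It fell to PD16 by 0.69 on the log2 scale from PD14 and by 0.88 from PD15 (limma adjusted p = 0.0305 and 0.0338, kept in 5 and 4 of 9). Gm6565, from the related gene Ube2v2, rose by 0.36 from PD14 to PD16 (adjusted p = 0.0478, kept in 1 of 9), with 7.55 to 8.13 FPKM on PD14 and 8.97 to 11.1 on PD16.

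Gm10355, 92.6% identical to the Ran-binding protein gene Rangrf, was listed at 3.63, 3.12 and 3.23 FPKM on PD14, 4.56, 5.61 and 6.46 on PD15, and 6.66, 6.56 and 5.85 on PD16. Every later library was above every PD14 library. The log2 change from PD14 was 0.77 on PD16 (limma adjusted p = 0.0106, kept in 9 of 9 fits that left out 1 library). On PD15 it was 0.59 (0.0487, kept in 0 of 9, where the adjusted p ran from 0.0599 to 0.151). Rangrf was at 0.26 to 0.80 FPKM, and Gm10355 held 81.6% of the fragments of both rows. It was the only call kept when the rows of each parent and its copies were summed.

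Vcp-rs, an X-linked copy of the segregase gene Vcp, had 58.2, 57.9 and 43.1 FPKM on PD14, 55.2, 90.2 and 85.9 on PD15, and 89.5, 87.5 and 119 on PD16. It rose by 0.88 on the log2 scale from PD14 to PD16 (limma adjusted p = 0.044, kept in 1 of 9 fits that left out 1 library). Vcp had 94.2, 89.3 and 93.6 FPKM on PD14, 94.7, 70.7 and 71.7 on PD15, and 79.0, 90.3 and 56.9 on PD16. The libraries with the most Vcp-rs on PD15 and PD16 had the least Vcp of their day. Gm12854, a copy of S100a11 in an intron of Uqcrh on the opposite strand, fell from 9.89, 9.06 and 7.93 FPKM on PD14 to 6.08, 5.93 and 6.22 on PD16. This was a log2 change of -0.49 (adjusted p = 0.0148, lost only without PD16 library 1, 0.059). S100a11 had 154 to 175 FPKM on PD14 and 133 to 141 on PD16. Gm29397, identical to part of the integrin gene Itga6, fell by 0.61 from PD14 to PD16 (0.0489, kept in 1 of 9), from 6.46 to 10.7 FPKM on PD14 to 4.76 to 5.78 on PD16. Itga6 had 61.7 to 70.6 FPKM on PD14 and 46.7 to 56.6 on PD16.

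Gm3244, identical to the complex I subunit gene Ndufb4 and in an intron of Mroh5, rose by 0.44 from PD14 to PD16 (limma adjusted p = 0.0239, kept in 5 of 9 fits that left out 1 library), with 4.29 to 5.16 FPKM on PD14 and 5.95 to 7.003 on PD16. Gm8116 and RP23-48A24.3 were called by the F test alone. Gm8116, a copy of the methyltransferase gene Carnmt1, had 19.1, 16.8 and 11.4 FPKM on PD14, 11.9, 7.21 and 9.62 on PD15, and 19.2, 19.8 and 20.2 on PD16. Carnmt1 was highest where its copy was lowest, at 21.5, 22.4 and 26.1 FPKM on PD15, against 12.9 to 17.5 on PD14 and 16.7 to 19.8 on PD16. RP23-48A24.3 had 13.6 to 16.5 FPKM on PD15 and 22.2 to 28.0 on PD16. Its best match, Gm20390, was listed at 0 in all 9 libraries. The exact permutation F test, with 280 groupings of the libraries and a smallest possible p of 0.00357, gave that value for 3 of the 19 (Gm12411, Gm13680 and Gm12854).

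Within a day, libraries of a member could differ widely. By a strict rule (lowest library under 1 FPKM and highest above 5 on the same day) 1 member switched, against 2 of 9029 other genes with a mean above 5. This was Gm11469 (ENSMUSG00000081123), with 8.56, 0.17 and 0.40 FPKM on PD14, 11.2, 9.40 and 7.30 on PD15, and 2.20, 3.29 and 6.58 on PD16. A single PD14 library decided the switch, since without PD14 library 1 no member met the rule. With a ratio of at least 4 between the highest and lowest library of a day (each plus 0.1 FPKM), 13 members (3.71%) qualified, against 19 of the 9029 others (0.21%). With a ratio of at least 2, 54 members (15.4%) did, against 130 (1.44%).

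Rps3a3 and Rps3a2 were low in the same libraries of PD15 but differed on PD16. Rps3a3, in an intron of Pde4d on the same strand, had 102, 111 and 138 FPKM on PD14, 10.9, 10.8 and 119 on PD15, and 27.4, 25.0 and 24.2 on PD16. Rps3a2 had 177, 306 and 317 FPKM on PD14, 46.0, 45.5 and 235 on PD15, and 301, 308 and 276 on PD16. On PD15 both copies were high in library 3 and low in libraries 1 and 2, and on PD16 Rps3a3 stayed low while Rps3a2 was high in all 3. Neither was called between days by limma (F test adjusted p of 0.156 and 0.119). Their parent Rps3a1 had 979 to 1238 FPKM on PD14, 1425 to 1742 on PD15 and 1183 to 1603 on PD16. The other copies of this gene, Gm13408 and Gm7600, were at 5.57 to 9.73 and 2.91 to 10.1 FPKM.

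The Rpl30 family moved in opposite directions. Rpl30-ps10 had 129, 39.8 and 17.97 FPKM on PD14, 30.3, 17.3 and 22.8 on PD15, and 52.4, 24.9 and 31.4 on PD16. Gm12191, in an intron of Cnot6, had 157, 605 and 257 FPKM on PD14, 210.4, 568 and 464 on PD15, and 297, 548 and 389 on PD16. In library 1 of each day Rpl30-ps10 was at its highest and Gm12191 at its lowest. Rpl30 had 145, 85.1 and 174 FPKM on PD14, 159, 101 and 191 on PD15, and 172, 110.5 and 122 on PD16, so it was lowest in library 2 of each day, where Gm12191 was highest. The fragments of the 3 rows together, on the length of Rpl30, came to 179, 159 and 206 FPKM on PD14, 187, 168 and 247 on PD15, and 213, 177 and 171 on PD16. The within-day SD on the log2 scale was 0.22 for this sum, against 0.45 for Rpl30 alone and a median of 0.83 for its copies.

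In Rps24-ps3, Gm16477 and Gm5451, 1 library stood apart from the rest of its day. Rps24-ps3 had 53.5, 273 and 321 FPKM on PD14, with 284 to 449.6 on PD15 and 108 to 192 on PD16. Gm16477, a copy of Rpl7a in an intron of Fgfr2, had 40.3, 7.75 and 7.29 FPKM on PD14 and 5.98 to 9.51 on the other days. Gm5451, a copy of Rpl9, had 14.6, 3.50 and 3.80 FPKM on PD16 and 3.00 to 5.64 before. In each case the parent's libraries of that day differed far less, at 814 to 1166 FPKM for Rps24, 113 to 121 for Rpl7a and 243 to 279 for Rpl9. Gm5514, a copy of the lactate dehydrogenase gene Ldhb, had 4.67, 30.3 and 5.29 FPKM on PD14, 70.9, 36.4 and 73.9 on PD15, and 17.7, 56.0 and 50.5 on PD16, against 415 to 602 for Ldhb. Gm6166, a copy of the fatty acid binding protein gene Fabp5, had 5.89, 2.43 and 15.0 FPKM on PD14, 1.73, 1.23 and 9.79 on PD15, and 17.0, 1.62 and 10.9 on PD16. Library 2 was the lowest on every day for Gm6166, although library numbers carry no stated link between days. The remaining wide members were Gm6089 (a copy of Rrs1), Gm14719 (Ppdpf), Gm11836 (Myl6) and Gm8666 (Hmgn1), with ratios of 4.1 to 6.5 on their widest day.

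**Figure D4:**
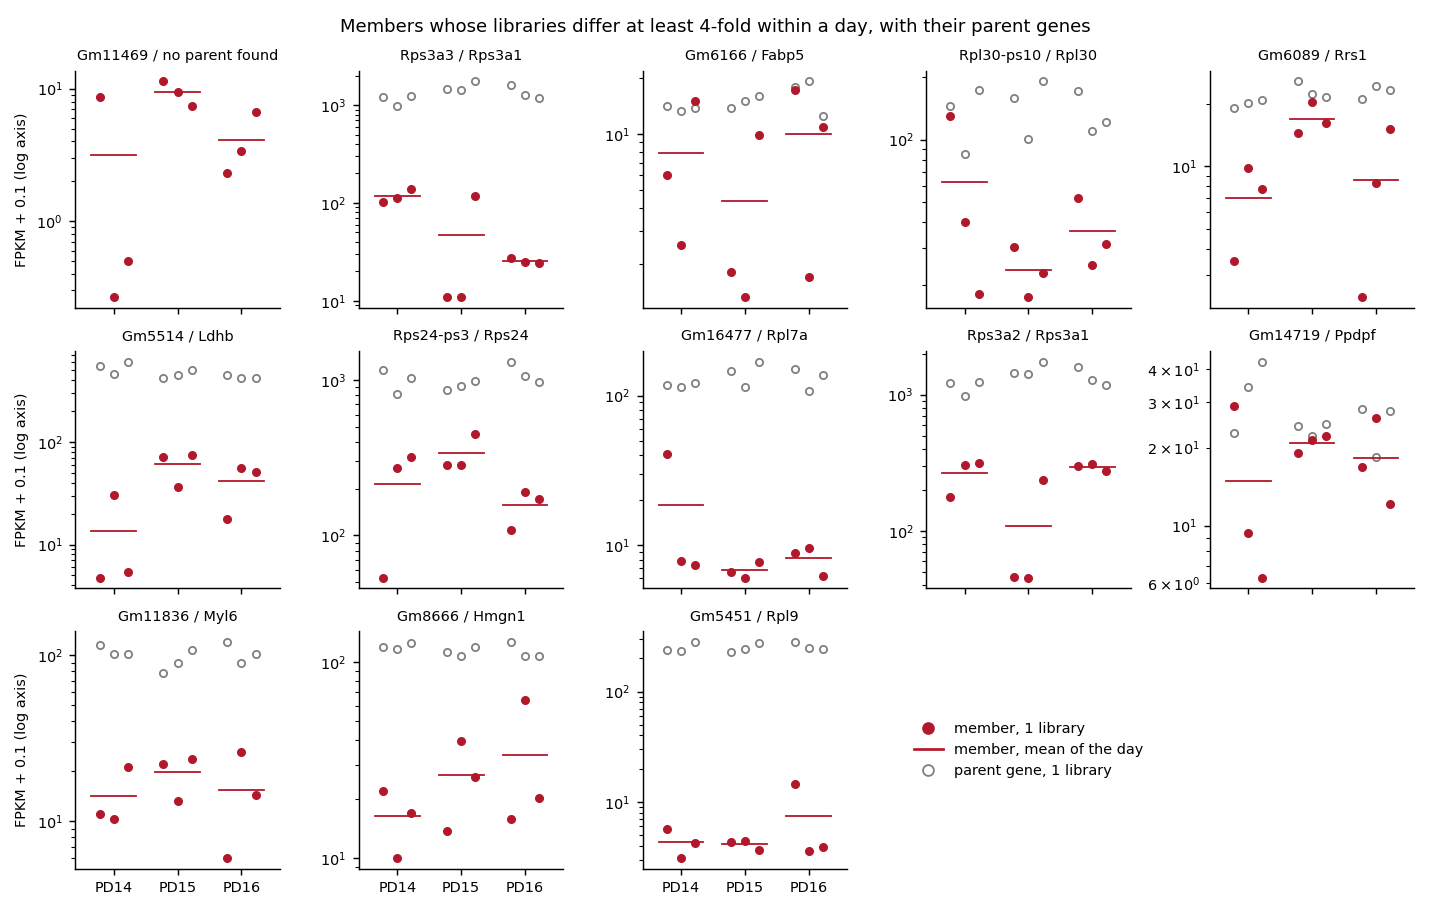
FPKM plus 0.1 (log axes) of the 13 members whose highest library was at least 4 times the lowest within a day (filled, lines mark day means), with their parents (open), in the 3 libraries of each day. Gm11469 falls to 0.17 and 0.40 FPKM in 2 PD14 libraries, and Rps3a2 and Rps3a3 drop in the same PD15 libraries while Rps3a1 does not.

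This spread was not limited to a few copies. The within-day SD of log2(FPKM + 1) had a median of 0.21 over the 350 members. It was 0.093 over 8691 protein-coding genes above 5 FPKM. The 95th percentile of these coding genes, not matched for level, was exceeded by 183 members (52.3%). Against the 95th percentile of coding genes in the same range, 44.4% of members at 5 to 10 FPKM were above it. The shares were 60.7% at 10 to 30 FPKM, 45.5% at 30 to 100 and 40.7% above 100. Counting error, from the fragments behind each value, had a median SD of 0.089. For the 54 members above 100 FPKM the counting SD was 0.029 and the measured SD 0.23, against 0.13 for coding genes at that level. The coding ribosomal protein genes, which supply the largest class of parents, also had a wider median of 0.19.

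**Figure D5:**
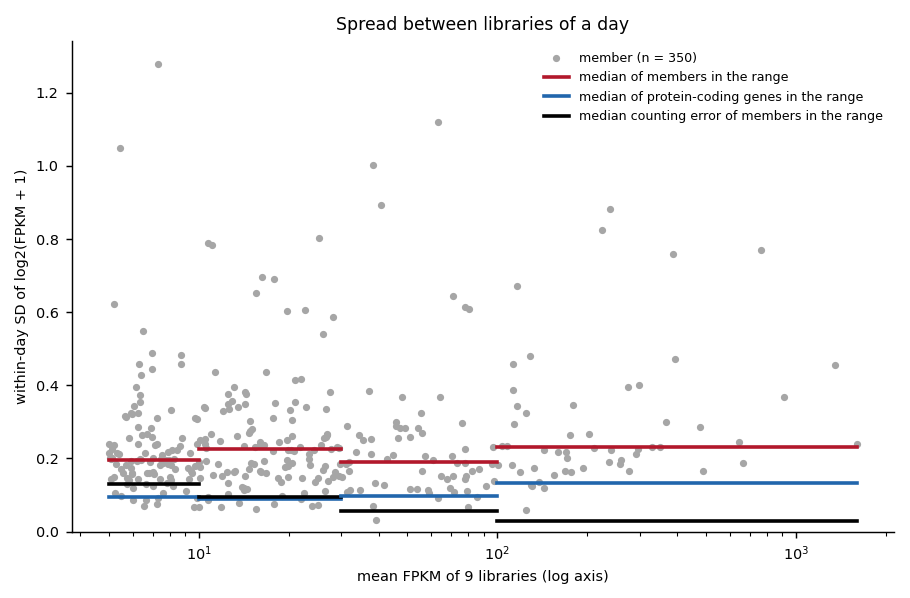
Within-day SD of log2(FPKM + 1) of each member against its mean FPKM (log axis). Bars mark, for each range of level, the median of members, of protein-coding genes and of the counting error of members. In every range the members' median (0.19 to 0.23) is above that of coding genes (0.090 to 0.13).

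Members and parents varied together to very different degrees. Over the 9 libraries, with day means removed, the correlation of a member with its parent (log2 scale) had a median of 0.44 over 344 pairs. It was above 0.5 for 163 and under -0.5 for 39. The 2 rows of a pair share libraries and can share fragments, so this is a description, with no value for unrelated rows. The pairs that follow were chosen for opposed values. Rpl17-ps10 had 939, 386 and 959 FPKM on PD14, 918, 365 and 1151 on PD15, and 1136, 512 and 501 on PD16. Rpl17 had 269, 497 and 339 FPKM on PD14, 185, 589 and 319 on PD15, and 216, 532 and 498 on PD16, high where the copy was low. Gm11361 had 578 FPKM in PD15 library 3 and 298 to 388 elsewhere, while Rps18 had 16.8 FPKM in that library and 82.2 to 154 elsewhere. Gm15772 was highest, at 2220.2 FPKM, in the PD16 library where Rpl26 was lowest, at 9.65. Gm10241, identical to part of the small ubiquitin-like modifier gene Sumo2, had 65.2, 234 and 63.0 FPKM on PD16, and Sumo2 had 96.8, 31.3 and 71.5. Gm9824 reached 200.03 FPKM in PD14 library 2 and 54.5 to 88.3 elsewhere, and its parent Pebp1 was at its lowest, 144, in the same library.

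When the fragments of each parent and its members were summed, the within-day SD had a median of 0.14 over 252 families, against 0.20 for the members and 0.14 for the parents alone. The sum was less variable than the family's median member in 220 families. A sum of several rows also has less counting error than any of them. For Rpl17 the SD was 0.16 summed and 0.69 for the gene alone, for Rps18 0.21 and 0.92, and for Rpl26 0.23 and 1.28. For Rps2 it was 0.51 summed and 1.24 alone, with a median of 0.25 for its copies. Summed, limma called 0 of 251 families from PD14 to PD15 (against 0.70% of all rows in the summed tables), 5 from PD14 to PD16 (1.99%, against 4.96%) and 0 from PD15 to PD16 (against 0.752%). At an unadjusted p under 0.05 the counts were 24, 41 and 15 families (9.56%, 16.3% and 5.98%, against 14.9%, 23.3% and 14.2% of all rows). Where the parent holds most of the fragments, as Rps4x does with 96.8% against 3.22% for Gm13680, the sum follows the parent by construction.

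The other named classes held 4 calls. By limma none of the 26 chromatin and nuclear protein copies was called, against 5.03% of all genes tested. From PD14 to PD15, PD14 to PD16 and PD15 to PD16, 2, 3 and 3 of them had an unadjusted limma p under 0.05. Of all genes tested, 14.7%, 22.8% and 14.1% did. The 26 copies ran from Gm5518 (Hmgb1, 176 FPKM) and RP23-184H3.5 (the nucleolar protein gene Npm1, 133) to Gm6104 (Hmgb3, 5.22). The 14 ubiquitin and proteasome copies held the 3 calls given above (21.4%, against 5.03% of all genes tested), and the 12 mitochondrial copies held 1, Gm3244 (8.33%). All 4 were lost in 4 or more of the 9 fits that left out 1 library. Gm6969, a copy of Cox7a2l, was the most abundant of these at 237 FPKM. By limma none of the 10 RNA-binding, 7 translation factor, 5 cytoskeletal, 3 Hspd1 and Ppia or 2 glycolysis copies was called. In the same order of contrasts, 0, 1 and 1 RNA-binding and 1, 1 and 0 translation factor copies had an unadjusted limma p under 0.05. The counts were 1, 0 and 1 for cytoskeletal, 0, 1 and 2 for Hspd1 and Ppia, and 0, 2 and 1 for glycolysis copies. Of all genes tested, 14.7%, 22.8% and 14.1% passed. Gm10123, a copy of Ppia, was listed at 349.99 FPKM and Gm13456, a copy of the elongation factor gene Eef1a1, at 71.7, against 3384 for Eef1a1. Summed over all members, FPKM was 20665, 20636 and 24313 on PD14, 21615, 20656 and 27044 on PD15, and 25608, 23301 and 19998 on PD16, so the days overlapped. Of 247 parents tested, 26, 37 and 17 had an unadjusted limma p under 0.05 from PD14 to PD15, PD14 to PD16 and PD15 to PD16 (10.5%, 14.98% and 6.88%, against 14.7%, 22.8% and 14.1% of all genes tested).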

How the data were processed

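Gene-level FPKM for 9 ovary libraries (TRIzol, 1 µg RNA, NEBNext Ultra, Illumina HiSeq) were used as deposited by the authors. The submitters' processing notes name HISAT2 2.0.5 and mm10. The counter, the annotation and the treatment of fragments with several alignments are not given in the sources used here. Depth (20.4 to 28.7 M fragments) and fragments per gene were recovered from the FPKM step of 1 fragment, and 94.2 to 94.7% of low values were whole within 0.02 fragments. Genes with a mean FPKM above 1 on any day (15495) were tested as log2(FPKM + 1) with limma 3.58.1 (trend, all days in 1 model, no block, two-sided, Benjamini-Hochberg), which was tested on simulated data. A parent was the gene named before -ps, or the best BLAST 2.17.0 match (word size 16, e-value 1e-10, plus strand) among GENCODE M21 coding transcripts. M21 lists 348 of the 350 members. Members called, the 10 highest, those switching within a day and those at the threshold were named. Opposed pairs, high copies and the members with 4-fold ranges were named after their values were seen. The members and lists were chosen with earlier results of these data known. Some results for coding genes are not reported here.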

Additional observations from a re-analysis of the deposited data

How the results depend on the processing

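Depth was 20.4 M fragments or more, so counting error limits mainly members near 5 FPKM. Without a filter on low values, 1, 4 and 1 members were called in the 3 contrasts (PD15 against PD14, PD16 against PD14, PD16 against PD15) and 3 by the F test, against 4, 12, 8 and 16; more genes then enter the adjustment. Without the intensity trend, 2 were called for PD15 against PD14 and 4 for PD16 against PD15. With the replicate number as a block (replicate block), 7 were called for PD16 against PD14 and 8 by the F test, and 14 of the 24 called contrasts of members stayed called. Lost from PD15 to PD16 were Gm12411, Rpl3-ps1, Rpl36a-ps1 and Gm2225, and from PD14 to PD15 Gm10355. Lost from PD14 to PD16 were Gm3244, Gm29397, Rps2-ps13, Vcp-rs and Gm6565. The labels give the numbers no meaning across days. Same-numbered libraries had correlations of -0.21 to 0.16 over all genes and -0.069 to 0.34 over the members, where 5 of 9 pairs were above 0.1, so pairing was not assumed. Over the members 8 of 9 libraries correlated best with one of their own number (2 of 9 over all genes), a hint from the data and not the design. Leaving out 1 library at a time gave 0 to 7, 4 to 12, 1 to 12 and 5 to 17 calls. For PD15 against PD14 the count was 7 without PD14 library 1, 1 without PD14 library 3, 0 without PD15 library 1, 1 without PD15 library 2 and 2 without PD16 library 1. For PD16 against PD14 it was 6 without PD14 library 3, 4 without PD16 library 1 and 7 without PD16 library 2. For PD16 against PD15 it was 1 without PD15 library 1, 2 without PD15 library 2, 3 without PD16 library 1 and 5 without PD16 library 3. By the F test it was 9 without PD14 library 3, 6 without PD15 library 1 or 2 and 5 without PD16 library 1. The cause of these differences was not tested. No called contrast of a member changed sign with another pseudocount, filter, scaling, variance model, block or left-out library. Another pseudocount (0.1) and the robust fit each kept 22 of the 24, and median-ratio scaling and a filter at 5 FPKM all 24. Without a filter on low values 6 of the 24 were kept, and without the intensity trend 14. The rule found 529 members at a threshold of 2 and 242 at 10, and 346 to 351 with 1 library left out. With 0.1 as the lower bound no member switched within a day, with a 4-fold ratio 13 did, and with 1 library left out 0 or 1. Summing each parent with its members, an alternative chosen after seeing the data, kept 1 of the 24, and 8 reversed. From PD14 to PD16 the summed log2 change was 0.049 for the family of Gm12411, 0.062 for Gm44126, 0.12 for Gm11954 and -0.021 for Gm3244. From PD15 to PD16 it was 0.18 for Gm11954 and -0.0052 for Rps25-ps1 and Gm2225, and from PD14 to PD15 -0.16 for Gm1821. Where the parent holds most fragments, the sum follows the parent by construction.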
